A study of Homo sapiens with 24 samples.

Results

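The 10 genes described here are targets of the transcription factor p53: CDKN1A, which encodes p21, and MDM2, GDF15, FAS, TP53I3, TP53INP1, ZMAT3, RRM2B, SESN1 and FDXR. They were taken by name from the 58735 genes of the deposited count table, and all 10 were among the 15956 genes with enough reads to be tested. RNA was sequenced from SAS cells, a human oral squamous carcinoma line, that carried the E79Q form of NRF2 or its wild-type form (WT). NRF2 is the product of NFE2L2 and drives antioxidant genes, and E79Q is a substitution in the stretch by which KEAP1 binds NRF2. For each genotype 4 groups of 3 libraries were made: radiation at 4 Gy with CB-839 at 0.1 µM, radiation with vehicle, CB-839 alone, and neither (called untreated), which gave 24 libraries in 8 groups. CB-839 is an inhibitor of glutaminase, the enzyme that turns glutamine into glutamate. Drug or vehicle came 24 h ahead of the radiation and RNA 24 h later, while the timing for unirradiated cells is not given. Untreated cells are titled Control, without mention of vehicle. Where figures show unirradiated cells, the side labelled vehicle is these untreated cells. How the E79Q form was brought into the cells and whether each genotype is 1 clone are not stated in the labels, and the counts do not show it.

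After DNA damage p53 is stabilised and binds the DNA of its target genes, most often at a 20-base site made of a pair of 10-base repeats, and raises their transcription. p21 then blocks cyclin-dependent kinases and so stops the cell cycle, while MDM2 marks p53 for destruction and closes a feedback loop. Other targets act in apoptosis, in the supply of nucleotides for repair and in redox balance. Several can also be induced without p53. GDF15 and the sestrin SESN2 respond to ATF4, which drives the response to amino acid lack and to unfolded proteins, and CDKN1A responds to growth and differentiation signals.

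Sequence at the start sites was available from RefSeq (GRCh38.p14) for 8 of the 10 genes, as windows from 250 bases before to 50 bases after each annotated start; RRM2B and TP53INP1 are named only. A match to the 20-base p53 consensus with at most 3 mismatches and the core C and G of each repeat kept was searched on both strands. It was found for 5 of the 8 genes, whereas 1.12% of all 35116 windows and 1.37% of 27305 genes hold one. The genes were chosen by name as p53 targets, so this contrast is not a result of these data. These 5 matches are shown because they are a likeness that 5 of the 8 genes have at a start. Not every start of these genes had one. It was in 2 of 4 windows of MDM2, 1 of 3 of FAS, 1 of 3 of SESN1, 1 of 2 of FDXR and the 1 window of GDF15. Each is read on the strand of its gene, and capitals mark the match.
MDM2: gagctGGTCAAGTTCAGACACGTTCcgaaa
FAS: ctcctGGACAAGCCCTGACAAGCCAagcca
SESN1: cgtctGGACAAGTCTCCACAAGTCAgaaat
GDF15: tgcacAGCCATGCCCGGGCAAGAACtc
FDXR: ggcccGGGCAGGAGCGGGCTTGCCCtgcgg
The MDM2 stretch is chr12:68808918-68808947 on the plus strand, intronic in 7 annotated transcripts, with 2 mismatches. In FAS it is chr10:88991304-88991333 on the plus strand, intronic in 11 transcripts and exonic in 2, also with 2 mismatches. The other 3 have 3 mismatches each. The SESN1 stretch is chr6:109009013-109009042 on the minus strand, in an intron. The GDF15 stretch is chr19:18386181-18386207 on the plus strand and the FDXR stretch chr17:74872991-74873020 on the minus strand, both exonic. A match is a likeness in letters and not a measured binding site.

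No match was found in the windows of CDKN1A, TP53I3 and ZMAT3. The p53 sites for which CDKN1A is best known lie farther upstream than this window reaches. Its 250 bases before the start, chr6:36678464-36678713 on the plus strand, are shown because CDKN1A is the gene that varied most. Capitals mark 4 overlapping or separate matches to GGGCGG, the letters of a GC box, which 45% of all windows hold on one strand or the other.
CDKN1A: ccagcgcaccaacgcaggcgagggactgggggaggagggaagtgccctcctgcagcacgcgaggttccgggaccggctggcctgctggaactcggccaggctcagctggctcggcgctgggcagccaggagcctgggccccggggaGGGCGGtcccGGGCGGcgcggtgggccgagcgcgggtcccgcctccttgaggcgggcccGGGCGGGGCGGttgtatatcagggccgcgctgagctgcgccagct

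Total counts ran from 14285084 to 23640197 per library, and the lowest count of any of the 10 genes in any library was 54, for TP53INP1. Levels are given as CPM, reads of a gene relative to the scaled library size. NQO1, a classical NRF2 target, averaged 565 to 755 CPM in the 4 E79Q groups and 292 to 399.6 CPM in the 4 WT groups. All 8 squamous markers were present in every library, and their summed level was 1651 to 2111 CPM in E79Q libraries, against 2356 to 3173 CPM in WT libraries. The 8 markers of leukocytes, endothelium and fibroblasts summed to 5.54 to 11.0 CPM, except in the untreated E79Q group, where the range was 9.06 to 46.6 CPM. With each library of the untreated groups left out, the genotype differences of CDKN1A and GDF15 there passed in 6 of 6 fits; the part of the markers in other results was not tested. The deviation of a gene from its group mean rose with its GC content most in 4 libraries (r 0.17 to 0.48 across genes), most of all in library 2 of E79Q cells given radiation and CB-839. Library 1 of the same group had the opposite trend, with r -0.38, and since the deviations of 3 libraries sum to 0 these values are not independent. The 4 libraries with the highest r were left out together as 1 alternative, and library 1 stayed in it. The series text describes 12 irradiated samples and whether the others were processed with them is not stated, so a difference between 2 runs and the effect of radiation cannot be told apart.

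CDKN1A (ENSG00000124762), on GRCh38 chromosome 6 from 36676460 to 36687339 on the plus strand, had 132, 158 and 146 CPM in irradiated E79Q cells with CB-839. It had 102, 110.0 and 98.3 CPM in irradiated E79Q cells, 64.8, 60.2 and 62.8 CPM in E79Q cells with CB-839, and 44.4, 36.4 and 33.8 CPM in untreated E79Q cells. In WT cells the levels were 93.0, 89.9 and 84.0 CPM with radiation and CB-839, 89.3, 91.6 and 94.0 CPM with radiation, 26.3, 25.7 and 31.2 CPM with CB-839, and 58.1, 55.1 and 54.4 CPM untreated. The groups lay apart from each other except the 2 irradiated WT groups, whose ranges overlapped. Irradiated E79Q cells with CB-839 were highest and WT cells with CB-839 lowest, 5.23-fold apart in their means.

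CDKN1A was higher with radiation than without it in every background. Compared with unirradiated cells of the same kind, the log2 fold change was 1.43 in E79Q cells (SE 0.08, adjusted p = 6.9e-13) and 0.71 in WT cells (SE 0.08, adjusted p = 2.6e-07). With CB-839 it was 1.21 in E79Q cells (SE 0.08, adjusted p = 3.3e-11) and 1.68 in WT cells (SE 0.09, adjusted p = 5.8e-14). All adjusted p-values are from edgeR's quasi-likelihood test with Benjamini-Hochberg adjustment over the 15956 genes, and they measure only the spread between these samples, since the labels do not say that replicates were separate cultures. In bulk RNA, more cells with p21 and more p21 RNA per cell cannot be told apart. The radiation effect without drug was larger in E79Q than in WT cells by 0.72 on the log2 scale (SE 0.12, adjusted p = 0.00068). With CB-839 that difference was -0.47 (SE 0.12, adjusted p = 0.048), a call that was lost in 10 of the 12 fits with 1 library left out. In WT cells the radiation effect was larger with CB-839 than without by 0.97 (SE 0.12, adjusted p = 4.1e-06), whereas in E79Q cells the same difference was -0.22 (95% interval -0.47 to 0.03, adjusted p = 0.20). Without the 4 libraries of highest GC trend the E79Q difference was -0.40 and passed the test (adjusted p = 0.0012).

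CB-839 moved CDKN1A in opposite directions in unirradiated cells of the 2 genotypes. With the drug it rose in E79Q cells, by 0.71 on the log2 scale relative to untreated cells (SE 0.09, adjusted p = 6.7e-07), and fell by 1.01 in WT cells (SE 0.09, adjusted p = 2.3e-09). The difference between these effects was 1.72 (SE 0.12, adjusted p = 9.8e-11). After radiation CB-839 raised it in E79Q cells by 0.49 (SE 0.08, adjusted p = 4.8e-05), while the change in WT cells was -0.04 (95% interval -0.21 to 0.13, adjusted p = 0.80), and the effects differed by 0.53 (SE 0.11, adjusted p = 0.0097). The direction of the genotype difference thus depended on the treatment. E79Q cells had less CDKN1A RNA than WT cells when untreated (-0.55, SE 0.09, adjusted p = 2.5e-05) and more with CB-839 (1.17, SE 0.09, adjusted p = 7.7e-11) and with radiation and CB-839 (0.71, SE 0.08, adjusted p = 4.4e-07). With radiation alone it was 0.17 higher (adjusted p = 0.20), which passed the test when only the compared groups were fitted (adjusted p = 0.0038) and without the 4 GC trend libraries (adjusted p = 0.0076). DINOL, an RNA from the opposite strand, shares 146 exon bases with CDKN1A, and the strand setting of the counting is not given in the sources used here.

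**Figure D1:**
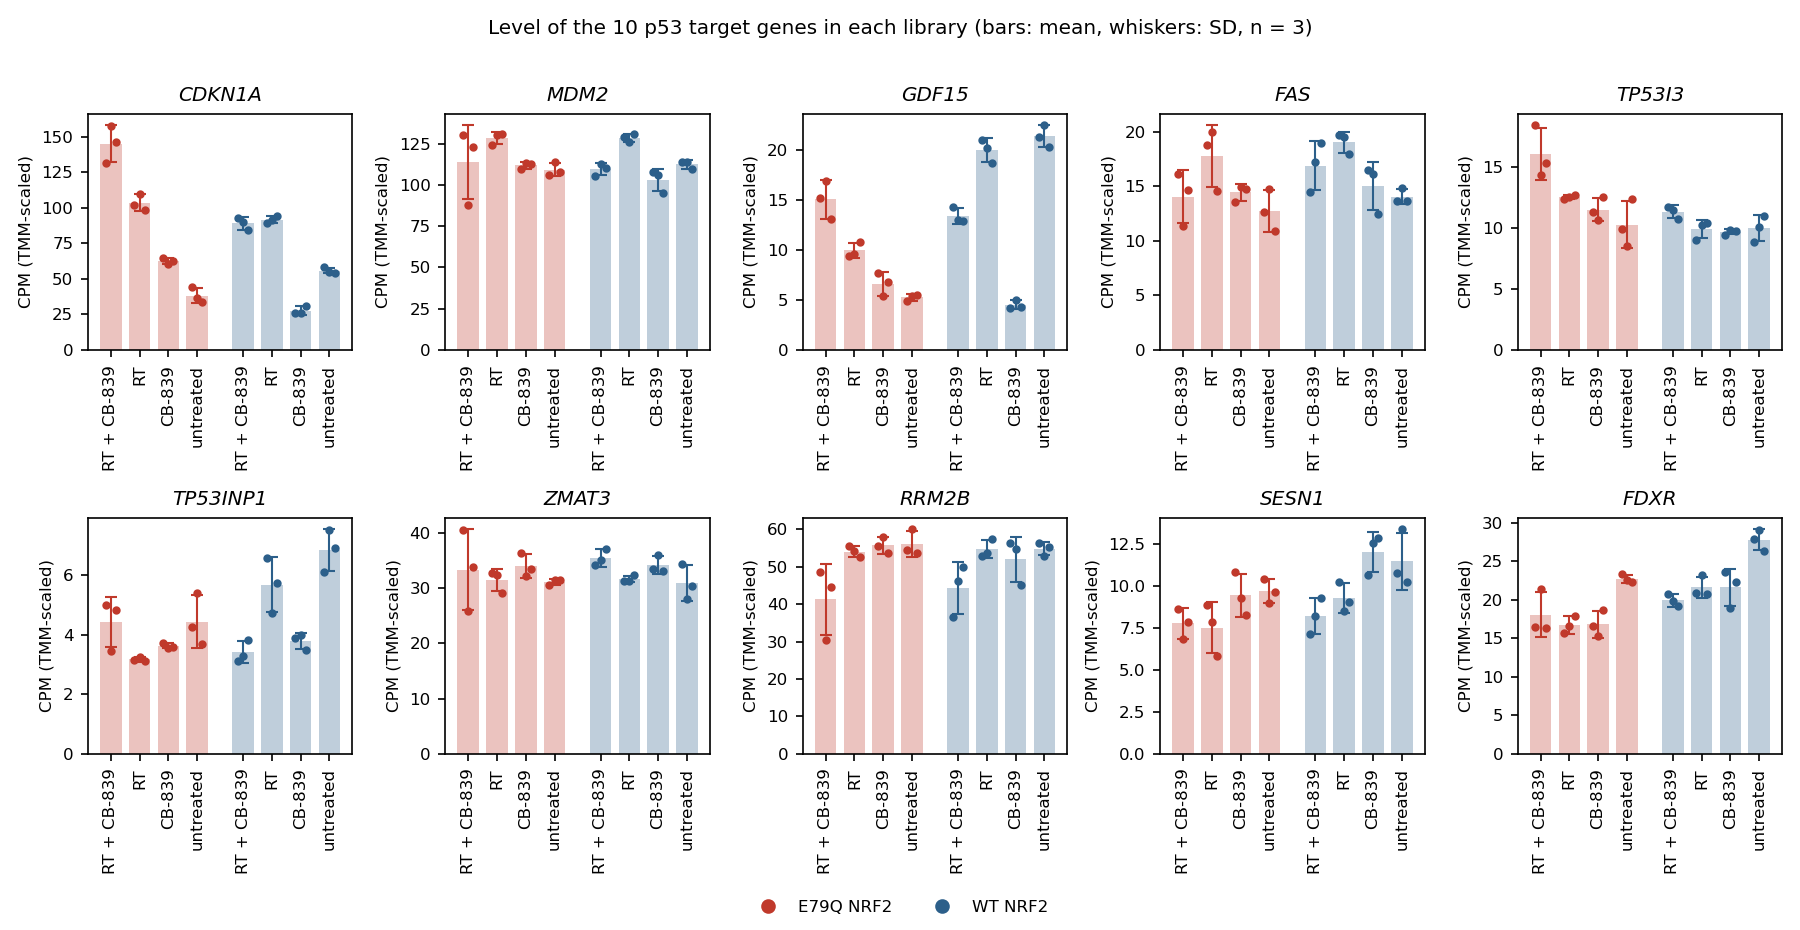
Levels of the 10 genes in each of the 24 libraries, 1 panel a gene, with CPM on the y axis and the 8 groups on the x axis; points are libraries, bars the mean and whiskers the SD of 3. CDKN1A spans 25.7 to 158 CPM and GDF15 4.17 to 22.5 CPM, while ZMAT3 stays between 25.8 and 40.5 CPM.

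MDM2 (ENSG00000135679; chromosome 12, 68808176 to 68850686, plus strand), the ubiquitin ligase that limits p53, differed little. Its level was 124, 130.0 and 131 CPM in irradiated E79Q cells, against 106, 114 and 108 CPM in untreated E79Q cells. Irradiated WT cells had 129, 126 and 131 CPM, against 114, 114 and 109 CPM in untreated WT cells. In both genotypes the irradiated libraries lay above the untreated ones without overlap, by 0.23 on the log2 scale in E79Q cells (SE 0.08, adjusted p = 0.047) and 0.19 in WT cells (SE 0.08, adjusted p = 0.12). The E79Q call was lost in 6 of 6 fits with 1 library left out and with DESeq2 (adjusted p = 0.054), and held without the 4 GC trend libraries (adjusted p = 0.00077). The WT change passed with only the compared groups fitted (adjusted p = 0.00064) and without the 4 GC trend libraries (adjusted p = 0.00054). With CB-839 the irradiated E79Q libraries spread widely, at 130.2, 88.0 and 123 CPM, against 109.6, 113 and 113 CPM without radiation. The low value is library 2, the one with the highest r with GC content. With all libraries the change was 0.02 (adjusted p = 0.88), and without that library it was 0.18 (adjusted p = 0.018). In WT cells with CB-839 MDM2 was at 105, 113 and 110.0 CPM after radiation and at 108, 106 and 95.2 CPM without it, a change of 0.09 (adjusted p = 0.50). With all libraries no genotype or drug comparison called MDM2, and the 4 genotype differences ran from -0.04 to 0.12. Without library 2 of E79Q cells with both treatments, the genotype difference there was 0.20 (adjusted p = 0.015), against 0.05 with it. Without library 1 of that group the drug effect in irradiated E79Q cells was -0.27 (adjusted p = 0.010). The drug effect in irradiated WT cells, -0.23 (adjusted p = 0.080), passed without the filter on low counts (adjusted p = 0.033), with only the compared groups fitted (0.0085) and without the 4 GC trend libraries (0.0022). MDM2 shares 439 exon bases with AC025423.2 on the same strand, 785 with AC025423.4 and 133 with CPM, a carboxypeptidase gene, on the opposite strand.

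GDF15 (ENSG00000130513; chromosome 19, 18374731 to 18389176, plus strand) encodes a secreted stress cytokine. Its highest levels were in WT cells without drug. In E79Q cells it had 15.2, 16.9 and 13.0 CPM with radiation and CB-839, 9.41, 9.60 and 10.8 CPM with radiation, 7.65, 5.35 and 6.79 CPM with CB-839, and 4.90, 5.35 and 5.49 CPM untreated. WT cells had 14.3, 13.0 and 12.9 CPM with radiation and CB-839, 21.0, 20.2 and 18.6 CPM with radiation, 4.17, 5.03 and 4.33 CPM with CB-839, and 21.3, 22.5 and 20.3 CPM untreated. In the order of the means the ranges overlapped between untreated and irradiated WT cells, between the 2 irradiated groups with CB-839, and among E79Q cells with CB-839, untreated E79Q cells and WT cells with CB-839.

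Without radiation, GDF15 fell by 2.24 on the log2 scale with CB-839 in WT cells (SE 0.12, adjusted p = 1.9e-13), whereas in E79Q cells the change was 0.33 (SE 0.13, adjusted p = 0.089). The difference between the 2 drug effects was 2.57 (SE 0.18, adjusted p = 9.8e-11). After radiation the drug effect was 0.60 in E79Q cells (SE 0.11, adjusted p = 0.00021) and -0.58 in WT cells (SE 0.10, adjusted p = 0.00068), a difference of 1.18 (SE 0.15, adjusted p = 4.4e-05). GDF15 therefore had opposite drug effects in the genotypes after radiation, each past the threshold.

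After radiation GDF15 was higher in E79Q cells, by 0.92 without drug (SE 0.12, adjusted p = 3.4e-06) and 1.19 with CB-839 (SE 0.12, adjusted p = 3.8e-08). In WT cells the radiation effect was 1.57 with CB-839 (SE 0.12, adjusted p = 4.1e-10) and -0.10 without it (95% interval -0.31 to 0.12, adjusted p = 0.59). The radiation effect was thus larger in E79Q than WT cells by 1.01 without drug (SE 0.16, adjusted p = 0.00058), and in WT cells larger with CB-839 than without by 1.67 (SE 0.16, adjusted p = 8.0e-08). Between genotypes, E79Q cells had less GDF15 RNA than WT cells untreated (-2.03, SE 0.12, adjusted p = 4.9e-13) and irradiated (-1.01, SE 0.11, adjusted p = 9.7e-08). They had more with CB-839 (0.54, SE 0.14, adjusted p = 0.0066), where leaving out 1 library lost the call in 1 of 6 fits. With both treatments the difference was 0.17 (95% interval -0.06 to 0.39, adjusted p = 0.42).

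**Figure D2:**
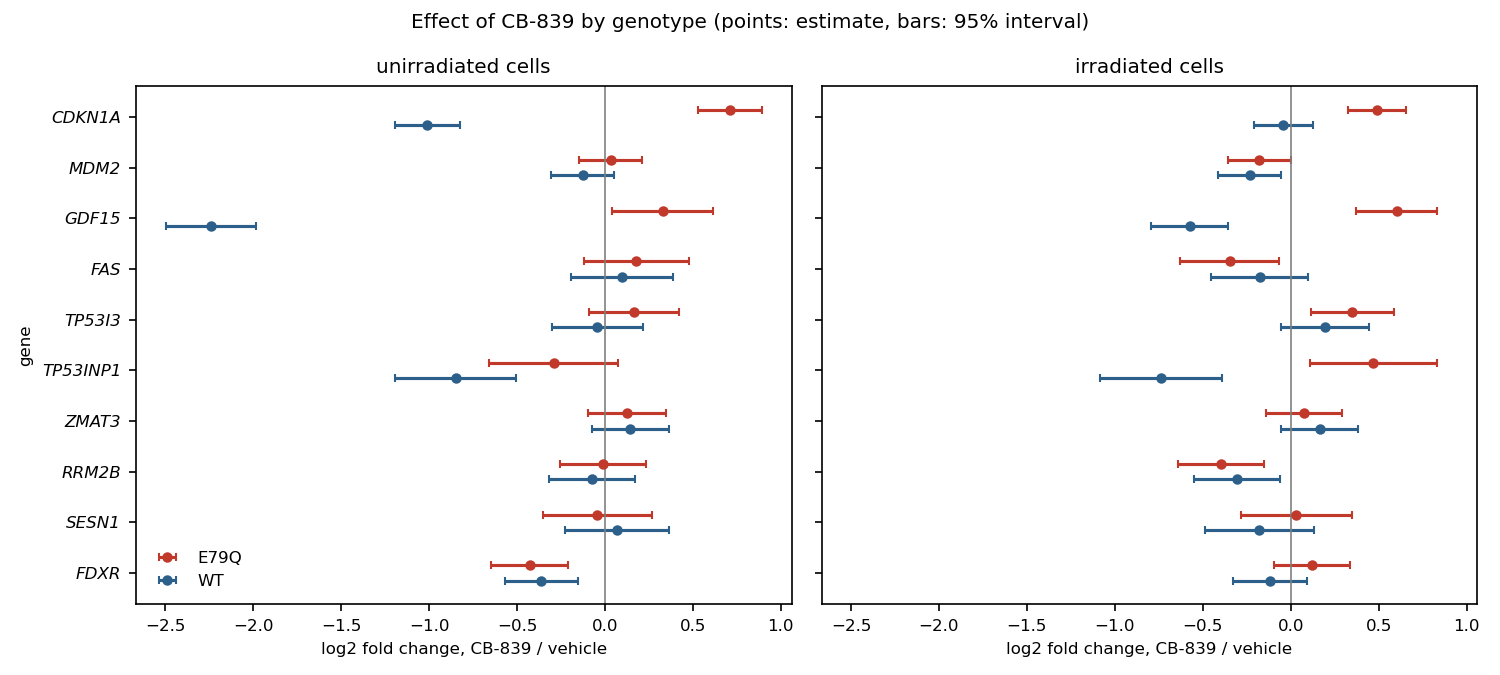
Log2 fold change with CB-839 against without it for each of the 10 genes in E79Q and WT cells, unirradiated and irradiated, with 95% intervals. In unirradiated cells CDKN1A is at 0.71 in E79Q cells and -1.01 in WT cells, and GDF15 is at 0.33 and -2.24, while the intervals of most other genes overlap between the genotypes.

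FAS (ENSG00000026103; chromosome 10, 88990582 to 89015785, plus strand), the death receptor for Fas ligand, was higher after radiation in both genotypes without drug. It had 18.8, 19.9 and 14.5 CPM in irradiated E79Q cells, against 12.6, 14.8 and 10.9 CPM in untreated E79Q cells. Irradiated WT cells had 19.6, 19.5 and 17.9 CPM, against 13.6, 14.8 and 13.6 CPM in untreated WT cells. In the E79Q groups 1 irradiated library lay within the untreated range, and in the WT groups none did. The log2 fold changes were 0.48 (SE 0.14, adjusted p = 0.011) in E79Q and 0.44 (SE 0.13, adjusted p = 0.021) in WT cells, and the difference between them was 0.04 (95% interval -0.36 to 0.44). Leaving out 1 library lost the E79Q call in 3 of 6 fits and the WT call in 4 of 6. With CB-839 the radiation changes were -0.05 in E79Q and 0.17 in WT cells, neither past the threshold. The drug effect in irradiated E79Q cells was -0.35 (adjusted p = 0.054). It passed with limma-voom (0.042), without the filter on low counts (0.034) and in 2 of 6 fits with 1 library left out. In E79Q cells the radiation effect with CB-839 minus without was -0.53 (adjusted p = 0.065). That passed without the filter (0.041) and in 3 of 12 fits with 1 library left out. FAS shares 380 exon bases with ACTA2 on the opposite strand.

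TP53I3 (ENSG00000115129; chromosome 2, 24077433 to 24085861, minus strand), a quinone oxidoreductase also called PIG3, was highest in irradiated E79Q cells with CB-839, at 18.5, 14.4 and 15.4 CPM. Irradiated WT cells with CB-839 had 11.8, 11.5 and 10.8 CPM, irradiated E79Q cells 12.4, 12.6 and 12.7 CPM, and E79Q cells with CB-839 11.3, 10.7 and 12.6 CPM. The combined E79Q group lay above each of these without overlap. It was higher by 0.50 than irradiated WT cells with CB-839 (SE 0.11, adjusted p = 0.0052), a call lost when only those groups were fitted (adjusted p = 0.11). Against E79Q cells with CB-839 alone it was 0.47 higher (SE 0.12, adjusted p = 0.0032), and against irradiated E79Q cells with vehicle 0.35 higher (SE 0.11, adjusted p = 0.022), which was lost in 2 of 6 fits with 1 library left out. Irradiated E79Q cells were 0.34 above irradiated WT cells (adjusted p = 0.070). That passed with only the compared groups fitted (0.018) and without the 4 GC trend libraries (0.033). The radiation change in E79Q cells without drug, 0.29 (adjusted p = 0.083), passed without library 3 of untreated E79Q cells (0.015). No difference between effects was called for TP53I3. It shares 80 exon bases with FAM228B on the opposite strand.

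TP53INP1 (ENSG00000164938; chromosome 8, 94925972 to 94949411, minus strand), a nuclear protein that promotes apoptosis and autophagy, had the fewest reads of the 10 genes. E79Q cells had 4.99, 3.47 and 4.82 CPM with radiation and CB-839, 3.14, 3.27 and 3.12 CPM with radiation, 3.72, 3.57 and 3.59 CPM with CB-839, and 4.24, 5.41 and 3.68 CPM untreated. WT cells had 3.13, 3.28 and 3.83 CPM with radiation and CB-839, 6.58, 4.72 and 5.74 CPM with radiation, 3.89, 4.00 and 3.49 CPM with CB-839, and 6.10, 7.51 and 6.92 CPM untreated. The 2 WT groups without drug were the highest, and every library of theirs lay above every library of the WT groups with CB-839. With CB-839 TP53INP1 fell by 0.85 on the log2 scale in WT cells (SE 0.16, adjusted p = 0.00048) and fell by 0.74 in irradiated WT cells (SE 0.16, adjusted p = 0.0049). In irradiated E79Q cells the drug effect was 0.47 (SE 0.17, adjusted p = 0.041; lost in 5 of 6 fits with 1 library left out), and it differed from the WT effect by 1.21 (SE 0.24, adjusted p = 0.0049). TP53INP1 was lower in E79Q than WT cells both untreated (-0.62, SE 0.16, adjusted p = 0.0054) and irradiated (-0.84, SE 0.17, adjusted p = 0.00077). After radiation it fell by 0.48 in E79Q cells without drug (SE 0.17, adjusted p = 0.043), a call lost in 5 of 6 fits with 1 library left out. With CB-839 the radiation effect in E79Q cells was 0.28 (adjusted p = 0.23). It was more positive than without the drug by 0.76 (SE 0.24, adjusted p = 0.037), which was lost in 7 of 12 such fits.

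ZMAT3 (ENSG00000172667; chromosome 3, 179017223 to 179072279, minus strand), a zinc finger protein that binds RNA, was called in none of the 12 comparisons between groups. Its 24 libraries ran from 25.8 to 40.5 CPM with a median of 32.6 CPM, and both extremes came from irradiated E79Q cells with CB-839. Group means were 1.15-fold apart at most. Without library 2 of that group the drug effect in irradiated E79Q cells was 0.24 (adjusted p = 0.042), against 0.08 with it.

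RRM2B (ENSG00000048392; chromosome 8, 102204502 to 102239118, minus strand) encodes the p53-inducible small subunit of ribonucleotide reductase, which makes deoxynucleotides for DNA repair. None of the 12 comparisons called it higher. Irradiated E79Q cells with CB-839 had 48.7, 30.6 and 44.6 CPM, against 55.6, 58.0 and 53.6 CPM in E79Q cells with CB-839 alone and 55.5, 54.1 and 52.5 CPM in irradiated E79Q cells with vehicle. All 3 combined libraries lay below the others, with log2 fold changes of -0.44 for radiation (SE 0.12, adjusted p = 0.0060) and -0.40 for the drug (SE 0.12, adjusted p = 0.013). Without library 2 these were -0.26 (adjusted p = 0.043) and -0.21 (adjusted p = 0.11), and with only the compared groups fitted the adjusted p-values were 0.073 and 0.12. Irradiated WT cells with CB-839 had 36.5, 46.3 and 49.9 CPM, and the corresponding changes there were -0.24 (adjusted p = 0.15) and -0.31 (adjusted p = 0.093). The WT radiation change passed without the filter (adjusted p = 0.039) and without the 4 GC trend libraries (0.022), and the WT drug change without the filter (0.0091) and with only the compared groups fitted (0.033).

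SESN1 (ENSG00000080546; chromosome 6, 108986437 to 109094819, minus strand), a sestrin that restrains mTORC1, had log2 fold changes of -0.55 to -0.28 for radiation against none in the 4 backgrounds, and passed the test in 1. In WT cells with CB-839 it had 7.16, 8.25 and 9.30 CPM after radiation, against 10.7, 12.6 and 12.9 CPM without it. These libraries did not overlap, and the change was -0.55 (SE 0.14, adjusted p = 0.0057), with an adjusted p of 0.053 without the 4 GC trend libraries. With all libraries no other comparison called SESN1. The radiation change in E79Q cells without drug was -0.36 (adjusted p = 0.083). It passed with only the compared groups fitted (0.042) and without library 1 of irradiated E79Q cells (0.030). SESN1 shares 363 exon bases with AL390208.1 on the opposite strand.

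FDXR (ENSG00000161513; chromosome 17, 74862497 to 74873031, minus strand), the mitochondrial ferredoxin reductase, was highest in untreated WT cells and was called only downwards. E79Q cells had 16.5, 21.4 and 16.3 CPM with radiation and CB-839, 15.7, 16.6 and 17.9 CPM with radiation, 16.5, 15.3 and 18.7 CPM with CB-839, and 23.3, 22.5 and 22.2 CPM untreated. WT cells had 20.8, 19.9 and 19.1 CPM with radiation and CB-839, 20.8, 23.2 and 20.8 CPM with radiation, 23.6, 19.0 and 22.3 CPM with CB-839, and 27.9, 29.1 and 26.4 CPM untreated. Within each genotype every treated library lay below every untreated one. Without drug FDXR fell by 0.44 after radiation in E79Q cells (SE 0.10, adjusted p = 0.0019) and fell by 0.36 in WT cells (SE 0.10, adjusted p = 0.0096). Without radiation it fell by 0.43 with CB-839 in E79Q cells (SE 0.10, adjusted p = 0.0036) and fell by 0.36 in WT cells (SE 0.10, adjusted p = 0.012; lost in 2 of 6 fits with 1 library left out). Where cells had the other treatment too, neither change passed the threshold. The radiation effect in E79Q cells was less negative with CB-839 than without by 0.55 (SE 0.14, adjusted p = 0.017; lost in 2 of 12 fits with 1 library left out), and the like difference in WT cells was 0.25 (adjusted p = 0.35). The E79Q call was also lost without the 4 GC trend libraries (0.38, adjusted p = 0.085) and with only the compared groups fitted (adjusted p = 0.051). E79Q cells had less FDXR RNA than WT cells untreated (-0.29, adjusted p = 0.034), with CB-839 (-0.36, adjusted p = 0.017) and irradiated (-0.37, adjusted p = 0.015), calls lost in 5, 4 and 2 of 6 fits with 1 library left out.

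Per kilobase of the deposited gene length (RPKM), CDKN1A RNA was the most abundant of the 10, at a mean of 25.1 RPKM over the 24 libraries. RRM2B followed at 9.31, MDM2 at 8.62, GDF15 at 5.75, FDXR at 5.74, TP53I3 at 4.94, FAS at 3.64, ZMAT3 at 3.40, SESN1 at 1.84 and TP53INP1 at 0.780 RPKM. The order of spread was different. GDF15, 4.73-fold between its highest and lowest group means, came next after CDKN1A at 5.23-fold. TP53INP1 had 2.16-fold, and the other 7 genes lay between 1.15-fold for ZMAT3 and 1.66-fold for FDXR and TP53I3.

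Counted by comparison, radiation against none called 4 of the 10 genes higher and 2 lower in E79Q cells, where 12.2% of all genes tested were higher and 10.1% lower. In WT cells 2 were higher and 1 lower, against 9.41% and 8.49% of all genes. With CB-839, 3 were higher and 1 lower in E79Q cells (all genes 15.3% and 13.9%), and 2 higher and 1 lower in WT cells (13.2% and 10.4%). The median log2 fold change of the 10 genes was 0.12, -0.01, 0.06 and 0.07 in these comparisons, and that of all genes was at most 0.02 in size. CDKN1A was the only one of the 10 called higher in each of them.

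CB-839 alone against untreated called 1 gene higher and 1 lower in E79Q cells (all genes 9.44% and 10.4%), and none higher and 4 lower in WT cells (6.35% and 8.44%). After radiation 4 were higher and 1 lower in E79Q cells (12.9% and 13.1%), and none higher and 2 lower in WT cells (4.99% and 4.53%). Genotype comparisons called none higher and 4 lower in untreated E79Q cells relative to WT (9.62% and 10.1%), and 2 higher and 1 lower with CB-839 (8.3% and 6.72%). They called none higher and 3 lower after radiation (4.69% and 4.95%), and 2 higher and none lower with both (4.4% and 2.86%). As the list holds 10 genes, a count of 1 stands close to most of these backgrounds.

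For the differences between effects, 2 genes had a larger radiation effect in E79Q than WT cells without drug (0.815% of all genes higher and 0.445% lower), and 1 a smaller one with CB-839 (0.363% and 0.714%). The drug effect was more positive in E79Q than WT cells for 2 genes without radiation (7.46% and 6.83%) and for 3 after it (1.26% and 0.652%). The radiation effect was more positive with CB-839 than without for 2 genes in E79Q cells (7.83% and 6.66%) and 2 in WT cells (2.75% and 1.27%). The 2 in E79Q cells, TP53INP1 and FDXR, fell after radiation without the drug (-0.48 and -0.44) and had no called change with it. CDKN1A and GDF15 made up all of these calls except those of TP53INP1 after radiation and of TP53INP1 and FDXR in E79Q cells. All of these comparisons share groups with each other.

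**Figure D3:**
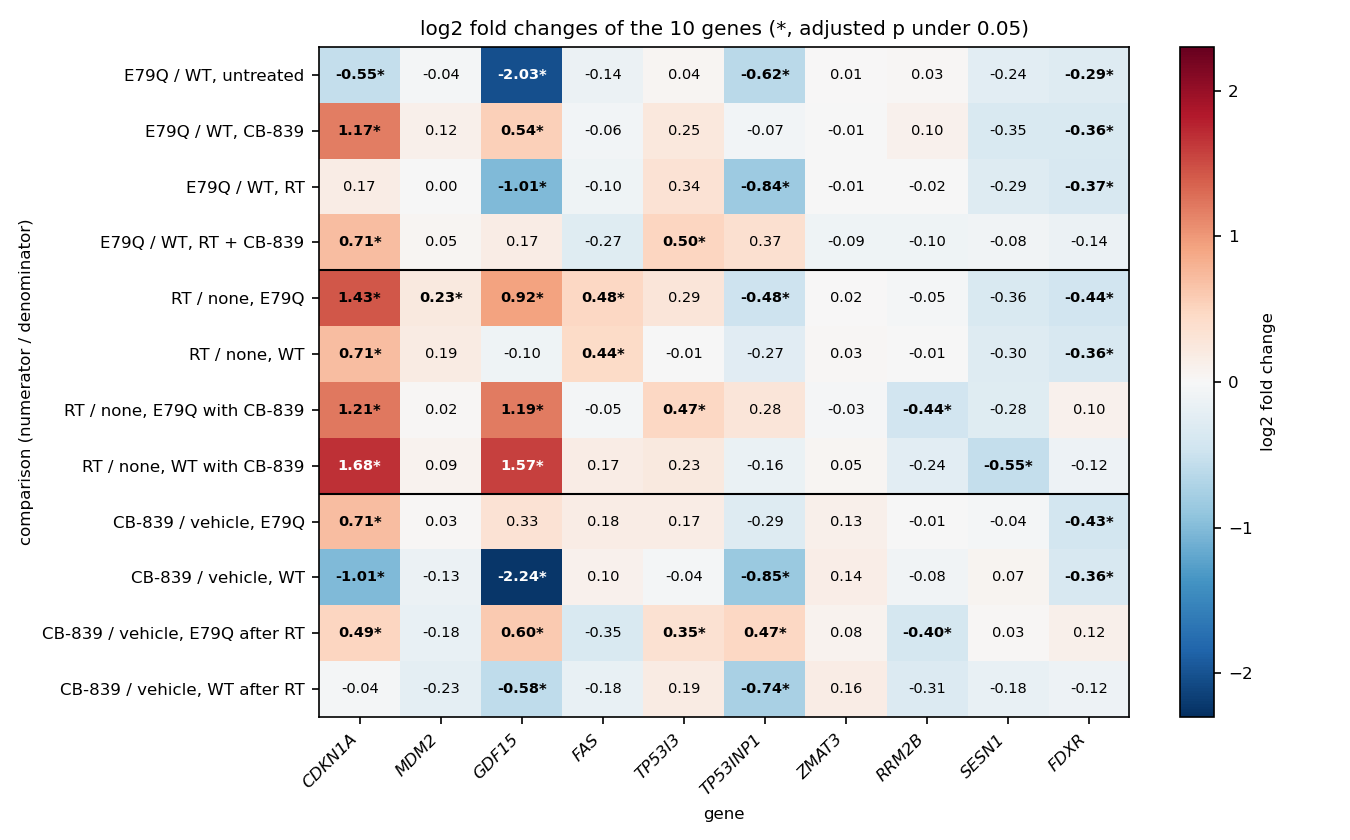
Log2 fold changes of the 10 genes (columns) in the 12 comparisons between groups (rows), with a star where the adjusted p was under 0.05. CDKN1A has 10 stars and GDF15 9, FDXR 7 and ZMAT3 none.

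Of 40 further p53 targets, 37 could be tested, and their response to radiation was of both signs. In irradiated E79Q cells 12 were higher and 4 lower (all genes 12.2% and 10.1%), and in irradiated WT cells 10 were higher and 7 lower (9.41% and 8.49%), in each case relative to unirradiated cells. With CB-839 the counts were 12 and 3 in E79Q cells (15.3% and 13.9%) and 14 and 3 in WT cells (13.2% and 10.4%). The counts of lower genes were near these backgrounds except in WT cells without drug. The medians of the 37 were 0.07, 0.07, 0.13 and 0.08 on the log2 scale. CD82, a tetraspanin, rose in all 4 radiation comparisons, by 0.46 in E79Q cells, 0.79 in WT cells, and with CB-839 by 0.60 in E79Q and 0.69 in WT cells. PLK3, a stress-responsive polo-like kinase, rose by 0.37 and 0.36 in E79Q and WT cells and with CB-839 by 0.48 and 0.52. PMAIP1, which encodes the BH3-only protein NOXA, rose by 0.58 and 0.63 in E79Q and WT cells without drug. GADD45A, a growth arrest protein, was raised by 0.49 in E79Q cells, more than in WT cells by 0.36 (adjusted p = 0.011). PHLDA3, an inhibitor of AKT, fell by 0.42 in E79Q cells and by 0.47 in WT cells, and APAF1, the core of the apoptosome, fell by 0.51 in E79Q cells and by 0.53 in WT cells with CB-839. None of the 4 tested DNA repair targets was higher after radiation, and DDB2, a damage recognition protein, fell by 0.33 in WT cells (adjusted p = 0.043). For a list of 4 genes these counts are near the background, where 9.41% to 15.3% of all genes were higher.

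Of the 37, 7 had a more positive and 2 a more negative CB-839 effect in E79Q than WT cells, against 7.46% and 6.83% of all genes. BBC3 and SESN2 are among the 7. BBC3, which encodes the BH3-only protein PUMA, had 1.97 ± 0.29 CPM in untreated E79Q cells and 5.20 ± 0.23 CPM in untreated WT cells, and with CB-839 3.09 ± 0.37 CPM in E79Q and 1.89 ± 0.62 CPM in WT cells (SD, n = 3 each). It fell by 1.46 with the drug in WT cells (adjusted p = 1.6e-06), and its drug effect was more positive in E79Q cells by 2.11 (adjusted p = 3.5e-06). SESN2, a sestrin, had 15.3 ± 1.97 CPM in untreated E79Q cells and 23.8 ± 0.83 CPM in untreated WT cells, and with CB-839 24.1 ± 1.09 CPM in E79Q and 11.6 ± 0.94 CPM in WT cells. Its drug effect was 0.65 in E79Q cells and -1.04 in WT cells, a difference of 1.69 (adjusted p = 6.7e-10). Both genes, like CDKN1A, were lower with the drug in WT cells and had a more positive drug effect in E79Q cells. The 2 with a more negative effect in E79Q cells were PLK2, a polo-like kinase (-0.63, adjusted p = 6.0e-07), and AEN, a nuclease that acts in apoptosis (-0.53, adjusted p = 0.00011). PLK2 was called lower with the drug in E79Q cells. AEN rose by 0.37 with the drug in WT cells. Over all 37 the drug called 7 higher and 3 lower in E79Q cells (all genes 9.44% and 10.4%), and 2 higher and 5 lower in WT cells (6.35% and 8.44%). After radiation it called 13 higher and 2 lower in E79Q cells (12.9% and 13.1%), and 5 higher and 2 lower in WT cells (4.99% and 4.53%). Between genotypes 7 were higher and 7 lower in untreated E79Q cells relative to WT (9.62% and 10.1%), 11 and 3 with CB-839 (8.3% and 6.72%), 6 and 5 after radiation (4.69% and 4.95%), and 4 and 1 with both (4.4% and 2.86%). The counts of 2 and 3 in these comparisons are near or below the background for 37 genes.

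Regulators and relatives of p53 were counted as a list of 10 genes. MDM4, a partner of MDM2 that holds p53 inactive, fell by 0.41 with CB-839 in WT cells (adjusted p = 0.0041) and fell by 0.38 in irradiated E79Q cells (adjusted p = 0.0044). TP63, the p53 family member of squamous epithelium, was lower in E79Q than WT cells in each treatment, with log2 fold changes of -0.37 to -0.32, and after radiation fell by 0.24 in each genotype. TP73, another family member, fell by 1.22 after radiation in E79Q cells and fell by 0.85 in WT cells. Of these 10 genes, none was higher and 3 were lower after radiation in each genotype without drug (all genes 10.1% lower in E79Q and 8.49% in WT cells). With CB-839 8 were lower in E79Q cells (13.9%) and 5 in WT cells (10.4%).

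Targets of ATF4 were counted beside the p53 targets because GDF15 and SESN2 are known to respond to both; SESN2 is in both lists. Of 20 ATF4 targets, 12 were higher and none lower with CB-839 in E79Q cells (all genes 9.44% and 10.4%), and none was higher and 16 were lower in WT cells (6.35% and 8.44%). The medians were 0.49 and -0.92 on the log2 scale, and 18 of the 20 had a more positive drug effect in E79Q than WT cells (7.46% of all genes). After radiation CB-839 had 14 higher and none lower in E79Q cells (12.9% and 13.1%), and 5 higher and 2 lower in WT cells (4.99% and 4.53%). Radiation against none called 7 higher and 3 lower in E79Q cells (12.2% and 10.1%) and 2 higher and 8 lower in WT cells (9.41% and 8.49%). With CB-839 radiation called 9 higher in E79Q cells (15.3%) and 15 higher in WT cells (13.2%). PSAT1, a serine synthesis enzyme, was 1.15 higher in E79Q than WT cells with CB-839. DDIT4, an inhibitor of mTORC1 that p53 and ATF4 both induce, was lower in untreated E79Q than untreated WT cells (-2.23). The part of ATF4 in the levels of CDKN1A and GDF15 was not tested.

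**Figure D4:**
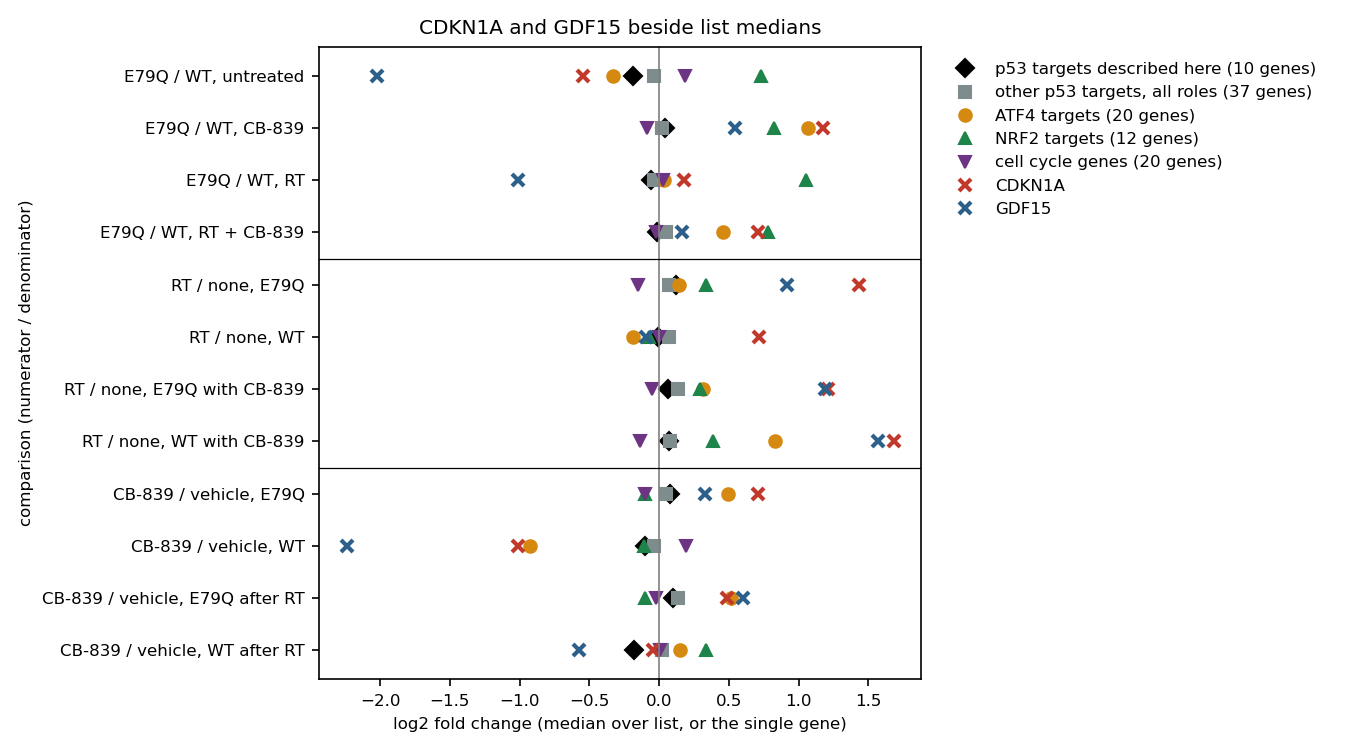
Log2 fold changes in the 12 comparisons for CDKN1A and GDF15 and medians of the gene lists. In WT cells with CB-839 alone against untreated WT cells, GDF15 is at -2.24, CDKN1A at -1.01 and the median of 20 ATF4 targets at -0.92. The median of the 37 other p53 targets is at -0.03.

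Cell cycle genes, which p21 represses through the RB and E2F pathway, were counted in the same comparisons. Of 20 such genes, 1 was higher and 10 were lower after radiation in E79Q cells (all genes 12.2% and 10.1%). In WT cells 2 were higher and 2 lower, which is close to the background of 9.41% and 8.49%. With CB-839 none was higher and 7 were lower in E79Q cells (15.3% and 13.9%), and 1 was higher and 7 lower in WT cells (13.2% and 10.4%). Without drug, PCNA, the sliding clamp of DNA replication, fell by 0.48 in irradiated E79Q cells and by 0.33 in irradiated WT cells. CDK1, a cyclin-dependent kinase, was the 1 higher gene in E79Q cells there. CDK1 and CCNE2, a cyclin, were the 2 higher genes in WT cells. With CB-839 alone 2 were higher and 8 lower in E79Q cells (9.44% and 10.4%), and 9 were higher and none lower in WT cells (6.35% and 8.44%). Untreated E79Q cells had 9 of the 20 higher and none lower relative to untreated WT cells (9.62% and 10.1%). PLK1, a mitotic kinase, was 0.35 higher there and fell by 0.41 with CB-839 in E79Q cells. Between the genotypes with CB-839 the list was called in both directions, with CCNE2 among the higher and CCNB1 among the lower genes in E79Q cells. Medians of the list stayed between -0.15 and 0.19 in all 12 comparisons, and its relation to CDKN1A was not tested.

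Over the 24 libraries the genes whose log2 CPM was most like that of CDKN1A, among 11797 genes compared, were IRAK2 (Pearson's r 0.97), INAVA (0.96), NFKB2 (0.96), NLRP1 (0.96) and TEP1 (0.95). For GDF15 they were GRB7 (0.96), UPP1 (0.95), FBXO32 (0.94), EHBP1L1 (0.94) and A2M (0.93), and for MDM2 ERO1A (0.91), FNDC3B (0.91), TAX1BP1 (0.91), MACF1 (0.89) and ATP6V1C1 (0.89). None of these 15 is among the 10 genes. Among the 10, r was 0.67 between CDKN1A and GDF15, 0.65 between CDKN1A and TP53I3, 0.40 between CDKN1A and MDM2, 0.68 between MDM2 and FAS, and -0.70 between CDKN1A and SESN1. The libraries share groups, depth and GC trends, so these values describe the 24 libraries only.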

How the data were processed

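RNA-seq of 24 SAS libraries was used. Raw counts of reads for each Ensembl gene were deposited by the authors in 1 table, and the authors' column of gene length holds other values, in bases. Per the submitters' processing notes STAR, HTSeq and GRCh38 were used; the sources used here give neither their roles and versions nor the annotation and strand setting. Columns were assigned by name; the last 3 carry a shortened name and were matched to irradiated E79Q cells with CB-839 by title. The 10 genes and all gene lists were chosen with earlier results of these data known. Coordinates were used as deposited.

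Genes were kept with filterByExpr in edgeR 4.0.16 (R 4.3.3), scaled by TMM and fitted with 1 mean per group over all 24 libraries (quasi-likelihood F test, 16 residual degrees of freedom, common biological coefficient of variation 7.19%). Calls had a Benjamini-Hochberg adjusted p under 0.05 over 15956 genes, in each of 18 comparisons separately. The smallest p of an exact test of 3 libraries against 3 is 0.1. The procedure was tested on counts simulated with the spread fitted to these data. They held no GC trend, so that test does not cover the trends seen in these libraries. Besides the 10 genes, the text names from each list the 2 genes of smallest p in each direction, MDM4, TP63 and NQO1, and the 5 genes most like CDKN1A, MDM2 and GDF15; some genes that this rule allowed are left out here. Alternatives were DESeq2 1.42.0, limma-voom (limma 3.58.1), DESeq2 size factors, no filter, the compared groups alone, the replicate number as a block, leaving out the 4 libraries whose deviations rose most with GC content, and leaving out each library.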

Additional observations from a re-analysis of the deposited data

Results flagged for a closer look

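Effects that differed between groups by the test of the difference itself (edgeR's quasi-likelihood test, log2 scale) were found for 4 of the 10 genes. In each such test 0.363% to 7.83% of all genes were higher and 0.445% to 6.83% lower. The 4 genes are pooled over the tests, and the share of all genes pooled in that way is not given here. For CDKN1A the radiation effect was larger in E79Q than WT cells by 0.72 without drug, and in WT cells larger with CB-839 than without by 0.97. Its mean levels in WT cells were 55.9 CPM untreated, 27.7 with CB-839, 91.6 with radiation and 89.0 with both. With CB-839 the radiation effect on CDKN1A differed between the genotypes by -0.47. That call was lost in 10 of 12 fits with 1 library left out. The CB-839 effect on CDKN1A was more positive in E79Q than WT cells by 1.72 without radiation (0.71 against -1.01). After radiation it was more positive by 0.53 (0.49 against -0.04).

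For GDF15 the radiation effect was larger in E79Q than WT cells by 1.01 without drug, and in WT cells larger with CB-839 than without by 1.67. The CB-839 effect on GDF15 was more positive in E79Q than WT cells by 2.57 without radiation (0.33, not past the threshold, against -2.24). After radiation it was more positive by 1.18 (0.60 against -0.58). For TP53INP1 the CB-839 effect after radiation was more positive in E79Q than WT cells by 1.21 (0.47 against -0.74). Its radiation effect in E79Q cells was more positive with CB-839 than without by 0.76 (0.28 against -0.48). That call was lost in 7 of 12 fits with 1 library left out. For FDXR the radiation effect in E79Q cells was more positive with CB-839 than without by 0.55 (0.10 against -0.44). That call was lost without the 4 libraries of highest GC trend (0.38, adjusted p = 0.085).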

How the results depend on the processing

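Of 2880 values of the 10 genes under alternative settings, 2760 kept their side of the threshold, 84 lost a call, 36 gained one and none of the called values changed sign; 34 of the 53 calls held in every alternative run. Counts of called genes among the 10 moved as follows. With only the compared groups fitted, 5 in place of 3 were called for E79Q against WT after radiation, 1 in place of 2 with radiation and CB-839, 2 in place of 5 for CB-839 in irradiated E79Q cells, 4 in place of 2 for CB-839 in irradiated WT cells, 0 in place of 1 for the difference in radiation effect with CB-839, and 0 in place of 2 for the difference in radiation effect in E79Q cells. Without the filter 4 in place of 2 were called for CB-839 in irradiated WT cells and 4 in place of 2 for the last difference, where limma-voom gave 1. DESeq2 size factors gave 0 in place of 1 for the difference in radiation effect with CB-839. Replicate numbers did not pair the libraries: 4 of 24 had their highest correlation within their own number. With the number as a block the count for that difference was also 0 in place of 1 and the calls of MDM2 and TP53INP1 for radiation in E79Q cells (adjusted p = 0.062 and 0.055) and of TP53INP1 for CB-839 in irradiated E79Q cells (0.053) were lost; no other call of the 10 genes changed. Without the 4 libraries of highest GC trend, 5 in place of 3 were called for E79Q against WT after radiation. Leaving out 1 library gave 1 to 3 calls for E79Q against WT with CB-839, 3 to 5 for radiation in E79Q cells (6 with all), 2 to 5 for CB-839 in irradiated E79Q cells, 0 to 1 for the difference in radiation effect with CB-839 and 0 to 5 for that in E79Q cells.

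Counts over all genes moved by over 1.5 times in these settings. With the compared groups alone they were 3081 in place of 1538 (E79Q against WT, radiation), 234 in place of 1159 (with CB-839 too), 4322 in place of 2855 (radiation, WT), 1667 in place of 4667 (radiation, E79Q with CB-839) and 1601 in place of 4141 (CB-839, irradiated E79Q). For the differences they were 611 in place of 201 and 40 in place of 172 (radiation effect without and with CB-839, E79Q minus WT), 132 in place of 305 (CB-839 effect after radiation), 831 in place of 2312 (radiation effect in E79Q, with minus without CB-839) and 1417 in place of 641 (the same in WT). Without the filter the last was 997. Without the 4 GC libraries the counts were 2606 in place of 1538, 4313 in place of 2855, 507 in place of 201, 719 in place of 305, 1413 in place of 2312 and 1824 in place of 641. Library 1 of E79Q cells given radiation and CB-839 moved the count for the difference in E79Q cells to 4275 when left out, and library 1 of untreated E79Q cells to 950. Over all libraries left out in turn, counts ran from 740 to 1639 for E79Q against WT with radiation and CB-839, 3073 to 5683 for radiation in E79Q cells with CB-839 and 638 to 1477 for CB-839 in irradiated WT cells (1520 with all). For the differences they ran from 107 to 144 and 92 to 252 (radiation effect without and with CB-839), 145 to 545 (CB-839 effect after radiation) and 363 to 718 (radiation effect in WT). The cause was not tested. Depth limited TP53INP1 most, with 54 to 131 reads per library.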
